A study of Homo sapiens with 8 samples.

Results

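The Hippo kinase core is the set of kinases, adaptors and upstream scaffolds that restrains the transcriptional co-activators YAP1 and TAZ. It was followed through 10 genes: STK3, STK4, SAV1, LATS1, LATS2, MOB1A, MOB1B, NF2, WWC1 and FRMD6. They were chosen by name, with earlier results of these data known. All 10 are among the 19479 genes that both deposited tables list, of which 16297 were above 0 in at least 1 library. All 10 passed the filter on low values in each comparison.

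The study sequenced RNA of AC16 cells, a proliferating human line obtained by fusion of ventricular heart cells with transformed fibroblasts, and its title asks how the ERK1/2 pathway bears on YAP1/TAZ signalling in high glucose. The 8 libraries form 4 groups of 2. All cells grew in DMEM with fetal bovine serum, penicillin and streptomycin. The 5 mM and 25 mM groups were held at that D-glucose concentration for at least 3 passages. The 5 to 50 mM group came from the 5 mM culture and received 45 mM more glucose for 24 h, and the 25 to 50 mM group came from the 25 mM culture and received 25 mM more for 24 h. None of the 4 groups is labelled with an ERK inhibitor or an osmotic control. The series calls the replicates technical, so each p-value reflects how far libraries of a group scatter, which need not include scatter between independent cultures. The cultures from 5 mM and from 25 mM were kept apart and sit in separate tables, so the maintenance glucose and any other difference between the cultures cannot be told apart.

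In the Hippo pathway, the kinases STK3 and STK4 (also called MST2 and MST1), held by the scaffold SAV1, phosphorylate the kinases LATS1 and LATS2. The LATS kinases, activated with their co-factors MOB1A and MOB1B, phosphorylate YAP1 and TAZ, which are then kept in the cytoplasm or degraded. NF2 (merlin), WWC1 (KIBRA) and FRMD6 (Willin) act upstream at the cell cortex, where they favour LATS activation. LATS2 is itself a transcriptional target of YAP1, a known feedback arm, and in heart muscle cells the cascade is known for restraining proliferation. Much of the control lies in phosphorylation, which RNA levels do not show.

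Library totals ran from 21538898 to 27372851 reads, so 3 reads in a coding length of 1 kb equal 0.110 to 0.139 RPKM (reads scaled to gene length in kilobases and to library depth). Each member had 233 to 8295 reads in a library, which gives a counting error of 6.55% to 1.10%. Libraries of 1 group differed most at 5 mM (chi-square per degree of freedom 16.57) and least at 5 to 50 mM (2.599). The defining markers of cardiomyocytes went against the labelled cell type: 2 of 14 reached 1 RPKM in any library, MYL2 and NKX2-5 were at 0 in all 8, and the 14 summed to 0.931 to 3.83 RPKM. All 10 fibroblast markers reached 1 RPKM. The cells are therefore called AC16 cells here.

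By the mean over 8 libraries, levels scaled to gene length ran from 136 RPKM for FRMD6 and 113 RPKM for MOB1A down to 12.3 RPKM for LATS1 and 8.84 RPKM for WWC1. Between them lay STK4 (43.6 RPKM), NF2 (38.6), SAV1 (24.0), STK3 (21.0), MOB1B (16.9) and LATS2 (14.7). STK3 and STK4 had higher RPKM than the LATS kinases they act on, and a pair of paralogues, MOB1A and MOB1B, held very different places in the order. The order changed with the group: MOB1A was above FRMD6 in both libraries at 5 mM and below it in the other 3 groups. NF2 was below STK4 in the groups from 5 mM and above it at 25 to 50 mM. Their libraries overlapped at 25 mM, as those of SAV1 and STK3 did at 5 mM and at 5 to 50 mM. The lengths behind these values equal the GENCODE v29 coding length for 7 members, while those of LATS1, MOB1A and MOB1B are 3588, 791 and 715 bases against 3456, 651 and 680, so the place of these 3 is less sure. Whether reads in UTRs were counted over these coding lengths is not stated in the sources used here, and such reads would raise RPKM by a different factor in each gene, so the order holds for the deposited values only.

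**Figure D1:**
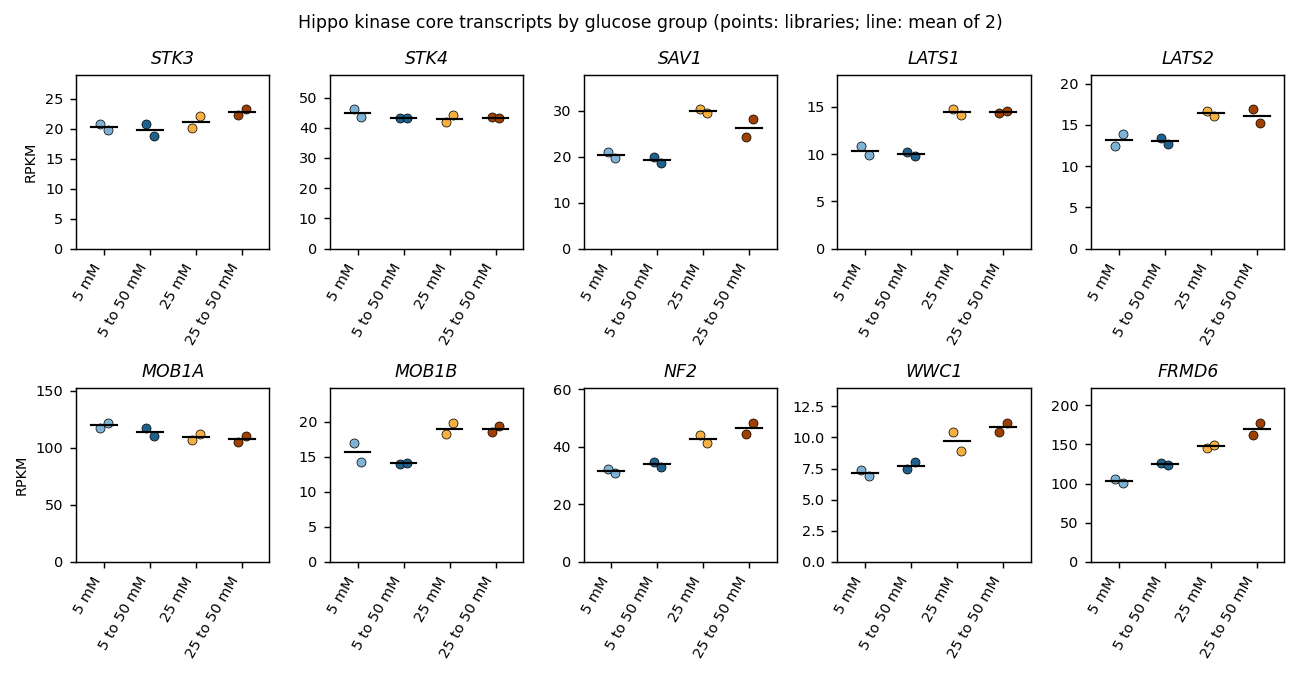
RPKM (vertical axes, from 0) of the 10 Hippo core genes in each library (points) of the 4 glucose groups, with the mean of 2 libraries as a line. In 7 panels the 4 libraries from 25 mM lie above the 4 from 5 mM, while in the STK3, STK4 and MOB1A panels they overlap.

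Calls among the core genes came from the comparisons between the cultures. At 25 mM against 5 mM, 7 of the 10 core genes were higher, 0 were lower and 3 did not pass. The 7 were LATS1, LATS2, SAV1, MOB1B, NF2, WWC1 and FRMD6, with fitted folds of 1.21 to 1.44. STK3, STK4 and MOB1A did not pass. The median log2 difference of the 10 was 0.35, against -0.0040 over all 11941 genes tested (limma on log2(RPKM + 1), Benjamini-Hochberg over all tested genes, threshold 0.05, as in every comparison below). Over all genes tested, 17% were higher and 22.1% lower, so calls are common in this comparison. After a correction for GC content the split over all genes went from 2032 higher and 2639 lower to 3651 and 2585. The member count was 6 with voom on recovered reads, 5 with replicate number as a block and 4 without 25 mM replicate 1. Without that library the calls over all genes went from 4671 to 3024. Folds are on the log2(RPKM + 1) scale, which understates changes of low genes.

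All 4 libraries from 25 mM lay above all 4 from 5 mM for the same 7 members, as they did for 21.9% of all genes tested. Other values move with the cultures too. The summed level of 12 histone genes was 288 to 357 RPKM at 5 mM, 443 to 456 RPKM at 5 to 50 mM, 50.3 to 53.4 RPKM at 25 mM and 66.0 to 66.5 RPKM at 25 to 50 mM, and 6 of the 7 tested were lower at 25 mM. Of 4 leukocyte markers, 2 reached 1 RPKM, CD3E was at 0 in all libraries and PTPRC was at most 0.214 RPKM. The 4 summed to 216 to 253 RPKM in the libraries from 5 mM and to 86.4 to 93.0 RPKM in those from 25 mM, nearly all of it CD68. Their part in the members' differences was not tested.

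**Figure D2:**
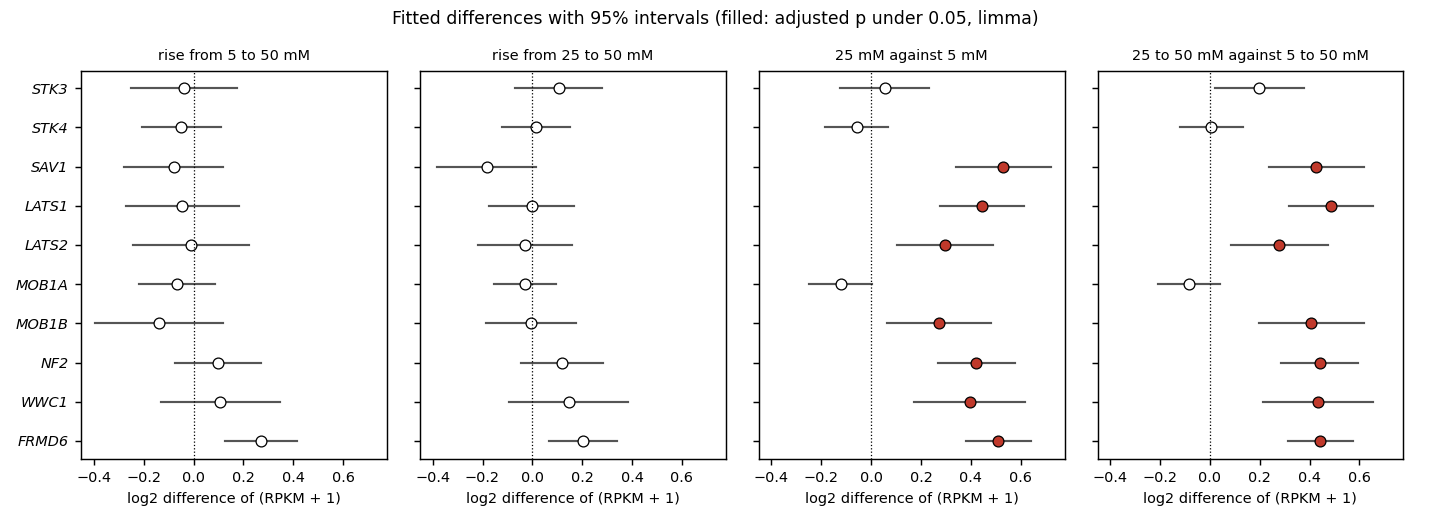
Fitted log2 difference of (RPKM + 1) with its 95% interval for the 10 core genes in 4 comparisons, filled where the adjusted p was under 0.05. Both comparisons between cultures hold 7 filled points, all to the right of 0, and both rises to 50 mM hold none.

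The upstream kinases did not pass the test in either comparison between the cultures. STK3, on chromosome 8 of hg38 (98343975 to 98942610, minus strand), had 20.9 and 19.8 RPKM at 5 mM, 20.8 and 18.7 at 5 to 50 mM, 20.2 and 22.1 at 25 mM, and 22.4 and 23.2 at 25 to 50 mM. Its libraries at 25 mM and 5 mM overlapped, and those at 25 to 50 mM were the highest of the 8. Both at 25 to 50 mM were above both at 25 mM for 1644 of 11422 genes. At 25 mM against 5 mM its fold was 1.04 (95% interval 0.917 to 1.18, limma adjusted p = 0.613), and between the groups raised to 50 mM it was 1.15 (1.01 to 1.30, adjusted p = 0.0737). The first of these turned sign without 25 mM replicate 3 (log2 -0.0068). The second passed after median centring (log2 0.26, adjusted p = 0.0297) and after GC correction (log2 0.23, adjusted p = 0.0132).

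STK4, on chromosome 20 (44966512 to 45080021, plus strand), had the narrowest range of the 10: its highest library was 1.10 times its lowest. It had 46.1 and 43.5 RPKM at 5 mM, 43.4 and 43.1 at 5 to 50 mM, 41.9 and 44.1 at 25 mM, and 43.4 and 43.4 at 25 to 50 mM. The libraries at 5 mM overlapped with those at 25 mM and lay just above those of both raised groups. Both at 5 to 50 mM were below both at 5 mM for 3082 of 11849 genes. The fold at 25 mM against 5 mM was 0.961 (95% interval 0.880 to 1.05, adjusted p = 0.439).

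SAV1, the scaffold that binds STK3 and STK4 to the LATS kinases, lies on chromosome 14 (50633580 to 50668306, minus strand). It had 21.0 and 19.8 RPKM at 5 mM, 19.9 and 18.6 at 5 to 50 mM, 30.3 and 29.5 at 25 mM, and 24.4 and 28.2 at 25 to 50 mM. The libraries from 25 mM were all higher, with the lowest of them at 25 to 50 mM. Its log2 difference at 25 mM against 5 mM was 0.53, close to that of FRMD6 and the highest point value of the 10 (SE 0.081, fold 1.44, adjusted p = 0.00173). It was called in 15 of 15 alternatives there. Of its 1103 coding windows of 50 bases, 257 (23.3%) also occur in the annotated gene AC093890.1, so some of its reads may be shared; the other 9 members share none.

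LATS1, on chromosome 6 (149658153 to 149718101, minus strand), encodes a kinase that phosphorylates YAP1 and TAZ directly. It had 10.8 and 9.92 RPKM at 5 mM, 10.3 and 9.77 at 5 to 50 mM, 14.7 and 14.2 at 25 mM, and 14.3 and 14.5 at 25 to 50 mM. The libraries formed a low set from 5 mM and a high set from 25 mM, and within each set the groups overlapped. The log2 difference at 25 mM against 5 mM was 0.44 (SE 0.072, fold 1.36, adjusted p = 0.00230), called in 15 of 15 alternatives.

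LATS2, on chromosome 13 (20973036 to 21061586, minus strand), is the paralogue that YAP1 is known to induce. It had 12.4 and 14.0 RPKM at 5 mM, 13.4 and 12.7 at 5 to 50 mM, 16.8 and 16.1 at 25 mM, and 16.9 and 15.3 at 25 to 50 mM. The sets from 5 mM and 25 mM did not overlap but came close, at 14.0 and 15.3 RPKM. The log2 difference at 25 mM against 5 mM was 0.30 (SE 0.083, fold 1.23, adjusted p = 0.0241). The call was lost with the replicate block (adjusted p = 0.0826), without 25 mM replicate 1 (log2 0.27, adjusted p = 0.120), after replicate 3 of that group was left out (0.32, 0.0732) and after 5 mM replicate 1 was (0.22, 0.0870).

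The MOB co-factors bind and activate the LATS kinases. MOB1A, on chromosome 2 (74152528 to 74178879, minus strand), had 117 and 122 RPKM at 5 mM, 118 and 110.4 at 5 to 50 mM, 107 and 112 at 25 mM, and 105 and 109.9 at 25 to 50 mM. The 4 libraries from 25 mM overlapped with the 4 from 5 mM. Group by group they did not: both at 25 mM were below both at 5 mM, as for 4219 of 11941 genes. Both at 25 to 50 mM were below both at 5 to 50 mM, as for 4770 of 11941. The fold at 25 mM against 5 mM was 0.919 (95% interval 0.842 to 1.00, limma adjusted p = 0.112). MOB1B, on chromosome 4 (70901851 to 70988168, plus strand), had 16.9 and 14.3 RPKM at 5 mM, 14.0 and 14.1 at 5 to 50 mM, 18.2 and 19.9 at 25 mM, and 18.5 and 19.4 at 25 to 50 mM. All 4 libraries from 25 mM were higher.

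The MOB1B call was the least stable of the 7. Its log2 difference at 25 mM against 5 mM was 0.27 (SE 0.090, fold 1.21, adjusted p = 0.0459), and 5 of 15 alternatives called it. It missed the threshold without the filter (adjusted p = 0.0682), with voom (0.0519), with the replicate block (0.122), and when any 1 library other than 5 mM replicate 1 was left out (0.0647 to 0.218). The weakest of these differences, without 5 mM replicate 3, was 0.16 on the log2 scale. It is also the member with the fewest reads.

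Within pairs of paralogues the balance differed between the cultures for MOB1. The MOB1A to MOB1B ratio of RPKM was 7.71 ± 1.15 at 5 mM, 8.12 ± 0.442 at 5 to 50 mM, 5.77 ± 0.162 at 25 mM and 5.67 ± 0.0209 at 25 to 50 mM (SD, n = 2 libraries each). The STK4 to STK3 ratio was 2.20 ± 0.00639, 2.19 ± 0.154, 2.04 ± 0.0503 and 1.90 ± 0.0534 in the same order. The 4 libraries from 25 mM were below the 4 from 5 mM for both ratios, by a narrow margin for STK4 to STK3 (2.07 against 2.08). The LATS1 to LATS2 ratio was 0.790 ± 0.112, 0.765 ± 0.00296, 0.879 ± 0.000431 and 0.898 ± 0.0734, and its sets overlapped. No test was made of these ratios, and the share of other gene pairs set apart in this way was not computed. Of single genes tested, 21.9% had all 4 libraries from 25 mM above all 4 from 5 mM.

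**Figure D3:**
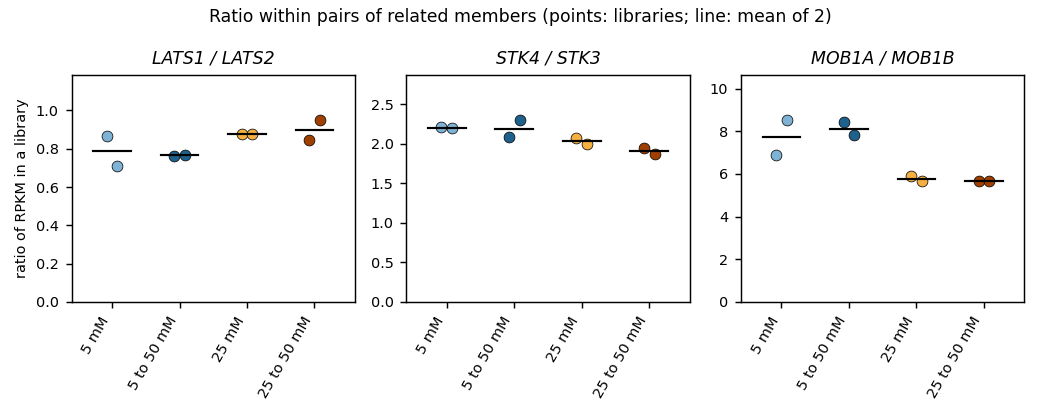
Ratio of RPKM within a library (vertical axes, from 0) for LATS1 to LATS2, STK4 to STK3 and MOB1A to MOB1B in the 4 glucose groups, with the mean of 2 libraries as a line. MOB1A to MOB1B lies between 6.90 and 8.53 in the libraries from 5 mM and between 5.66 and 5.88 in those from 25 mM.

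Of the upstream members, NF2, which links the cortex to LATS activation, lies on chromosome 22 (29603556 to 29698600, plus strand). It had 32.4 and 30.8 RPKM at 5 mM, 34.6 and 33.1 at 5 to 50 mM, 44.1 and 41.2 at 25 mM, and 44.4 and 48.3 at 25 to 50 mM. The 4 groups did not overlap and lay in the order 5 mM, 5 to 50 mM, 25 mM and 25 to 50 mM. Gaps between 2 groups were common: at 25 mM both libraries were above both at 5 mM for 3872 of 11941 genes. The share of genes with all 4 groups apart was not computed. The log2 difference at 25 mM against 5 mM was 0.42 (SE 0.066, fold 1.34, adjusted p = 0.00195), called in 15 of 15 alternatives.

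WWC1, an adaptor that works with NF2, lies on chromosome 5 (168291645 to 168472303, plus strand). It had 7.36 and 6.86 RPKM at 5 mM, 7.43 and 8.05 at 5 to 50 mM, 10.5 and 8.93 at 25 mM, and 10.4 and 11.2 at 25 to 50 mM. The set from 25 mM was higher throughout. The log2 difference at 25 mM against 5 mM was 0.40 (SE 0.095, fold 1.32, adjusted p = 0.0136). The call was lost without 25 mM replicate 1 (log2 0.29, adjusted p = 0.0913) and without 5 mM replicate 3 (0.35, 0.0501).

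FRMD6, a FERM domain protein related to NF2, lies on chromosome 14 (51396431 to 51730727, plus strand) and was the most abundant member. It had 106 and 100.3 RPKM at 5 mM, 126 and 123 at 5 to 50 mM, 146 and 149 at 25 mM, and 162 and 178 at 25 to 50 mM. As for NF2, no groups overlapped, a trait whose share over all genes was not computed. The range over the 8 libraries, 1.77 times from lowest to highest, was the widest of the 10. The log2 difference at 25 mM against 5 mM was 0.51 (SE 0.056, fold 1.42, adjusted p = 0.000344), called in 15 of 15 alternatives.

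The comparison of the groups raised to 50 mM asks whether cells at the same final glucose differed by where they started. Again 7 members were higher, 0 lower and 3 did not pass, and they were the same 7. The median log2 difference of the 10 was 0.42, against -0.023 over all genes. Over all genes tested, 18.1% were higher and 23.3% lower (2164 and 2782; 2799 and 2377 after median centring, 4179 and 2463 after GC correction). Among the 7, the order of the differences was not that seen at 25 mM against 5 mM. LATS1 had a log2 difference of 0.49 (adjusted p = 0.00141), NF2 0.44 (0.00147), FRMD6 0.44 (0.000663) and SAV1 0.43 (0.00449), and each of these 4 was called in 15 of 15 alternatives. WWC1 had 0.43 (0.00864), MOB1B 0.41 (0.00883) and LATS2 0.28 (0.0293). STK4 had a fold of 1.00 (95% interval 0.919 to 1.10) and MOB1A of 0.943 (0.865 to 1.03).

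Some of these calls rested on 1 library. The member count fell to 4 without 5 to 50 mM replicate 1 and was 6 with the replicate block. MOB1B and WWC1 were not called without 25 to 50 mM replicate 3 (adjusted p = 0.0553 and 0.0578) or without 5 to 50 mM replicate 1 (0.0548 and 0.0673). LATS2 was not called with the replicate block (0.120), when 25 to 50 mM replicate 2 was left out (0.152), or when either library of the 5 to 50 mM group was (0.0820 for replicate 1, 0.153 for replicate 2). Over all genes, the calls went from 4946 to 3177 without 5 to 50 mM replicate 1 and to 3242 without replicate 2.

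The study's design compares each rise to 50 mM with its own control. No core gene passed in either rise. From 5 to 50 mM limma called 0 of the 10 (voom 0), beside 39 of 11849 genes (0.329%), and without adjustment p was under 0.05 for 1 member higher and 0 lower, against 5.16% of genes higher. From 25 to 50 mM it called 0 of the 10 (voom 0), beside 1 of 11422 genes (0.00876%), and again 1 member passed upward and 0 downward without adjustment, against 2.8% of genes higher. The member medians were -0.042 and 0.0051 on the log2 scale, against -0.028 and -0.035 over all genes. The counts over all genes rest on single libraries: from 5 mM they were 805 and 560 when replicate 1 or 3 of the 5 mM group was left out, and 4 and 0 when replicate 1 or 2 of the 5 to 50 mM group was. From 25 mM they were 777 without 25 to 50 mM replicate 2, 3 without its replicate 3 and 0 without either 25 mM library.

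FRMD6 was the member with the lowest p in both rises. From 5 mM its log2 difference was 0.27 (SE 0.058, fold 1.21, limma adjusted p = 0.221) and from 25 mM 0.20 (SE 0.056, fold 1.15, limma adjusted p = 0.493). Both raised libraries were above both controls each time, as the values above show. The same held for 1963 of 11849 genes tested from 5 mM and for 1644 of 11422 from 25 mM. The rise from 5 mM passed after GC correction (log2 0.28, limma adjusted p = 0.0405), where calls over all genes went from 39 to 233. No other alternative with all libraries called either rise (voom adjusted p = 0.186 from 5 mM and 0.411 from 25 mM). With replicate 1 or 3 of the 5 mM group left out, the log2 difference from 5 mM was 0.31 or 0.23. Without 25 to 50 mM replicate 2, that from 25 mM was 0.27. FRMD6 was past the threshold in these fits, but each leaves 1 library in a group, so only the size is given.

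The other 9 members gave small fitted differences in the rises. NF2 had 0.098 from 5 mM and 0.12 from 25 mM, and WWC1 had 0.11 and 0.15. SAV1 had -0.081 and -0.18, the second with a limma adjusted p of 0.543 and both raised libraries below both controls. From 25 to 50 mM that last trait was shared by 3319 of 11422 genes. NF2 and WWC1 thus had positive values in both rises and SAV1 negative ones, none of them past the test. Over all genes tested, 40.5% of values were positive from 5 mM and 36.3% from 25 mM. MOB1B had -0.14 and -0.0044. LATS2 had -0.011 (95% interval of the fold 0.845 to 1.17) and -0.030 (0.860 to 1.12), and LATS1 had -0.045 (0.829 to 1.13) and -0.0033 (0.887 to 1.12). Both LATS kinases overlapped with their controls in both rises, and the sign of their values changed under some alternatives, as did that of MOB1B from 25 mM. The difference between the rises, tested on all 8 libraries, was called for 0 members (voom 0, 0 at an unadjusted p under 0.05) and for 3 of 11941 genes (0.0251%). The members' adjusted p ran from 0.971 to 0.993.

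Promoters are shown for 3 members that differed together between the cultures, LATS2, SAV1 and WWC1, and for STK4, the member with the narrowest range. Each is the 250 bases before the start used in the RefSeq table (GRCh38.p14), 5′ to 3′ on the gene's strand. That source held a window for 9 of the 10 members and none for STK3. The 4 windows shown end where the gene span given above begins. Among those not shown, the windows of LATS1, MOB1B and FRMD6 lie inside the gene span, and that of NF2 partly does. Capitals mark a motif match.
LATS2 promoter, chr13:21061587-21061836, minus strand: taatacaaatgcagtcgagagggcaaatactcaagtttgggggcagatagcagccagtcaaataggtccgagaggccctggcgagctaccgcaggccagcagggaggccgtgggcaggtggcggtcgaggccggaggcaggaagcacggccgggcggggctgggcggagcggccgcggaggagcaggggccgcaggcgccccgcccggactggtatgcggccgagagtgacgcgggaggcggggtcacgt
SAV1 promoter, chr14:50668307-50668556, minus strand: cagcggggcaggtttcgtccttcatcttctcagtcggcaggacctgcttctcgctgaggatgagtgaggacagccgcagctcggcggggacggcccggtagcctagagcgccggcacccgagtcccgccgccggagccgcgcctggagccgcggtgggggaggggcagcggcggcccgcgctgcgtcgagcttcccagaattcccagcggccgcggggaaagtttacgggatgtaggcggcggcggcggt
WWC1 promoter, chr5:168291395-168291644, plus strand: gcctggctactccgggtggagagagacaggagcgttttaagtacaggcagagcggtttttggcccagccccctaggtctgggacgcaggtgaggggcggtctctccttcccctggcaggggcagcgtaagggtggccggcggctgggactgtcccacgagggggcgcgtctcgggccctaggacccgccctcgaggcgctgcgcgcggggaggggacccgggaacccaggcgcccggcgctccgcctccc
STK4 promoter, chr20:44966262-44966511, plus strand: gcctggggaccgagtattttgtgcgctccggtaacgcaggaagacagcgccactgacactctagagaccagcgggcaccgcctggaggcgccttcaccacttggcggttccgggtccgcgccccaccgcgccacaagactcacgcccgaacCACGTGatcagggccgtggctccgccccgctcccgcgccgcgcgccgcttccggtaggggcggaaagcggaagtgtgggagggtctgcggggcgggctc

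These 4 windows have GC contents of 69.6% (LATS2), 72.0% (SAV1), 72.4% (WWC1) and 70.8% (STK4). The windows not shown have 29.2% (LATS1), 43.6% (FRMD6), 62.4% (MOB1A), 71.6% (NF2) and 72.8% (MOB1B). Among members that differed, LATS1 and FRMD6 had the lowest values, but their windows lie inside the gene span, unlike the 4 shown. Whether the likeness of STK4 to the other 3 shown extends to all members that differed therefore cannot be told from these windows. The motifs searched on both strands were GGAATG, known to be bound by TEAD factors, the E-box CACGTG, and TGANTCA, known to be bound by AP-1. Of the 9 windows, 0 held GGAATG, 1 held CACGTG (STK4, first base at -99) and 1 held TGANTCA (MOB1B, first base at -44). The MOB1B match is counted from the start used for its window and lies inside the gene span. No match overlapped another. The shares over 15426 listed genes with windows of the same length were 10% for GGAATG, 7.86% for CACGTG and 5.02% for TGANTCA. A match here is a description of letters only.

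Regulators around the core were counted from lists of pathway genes at 25 mM against 5 mM, where 17% of all tested genes were higher and 22.1% lower. Of the kinases of the TAOK and MAP4K families, which act beside STK3 and STK4 on LATS, 9 of 10 were tested: 1 was higher, 3 lower and 5 did not pass, with a median log2 difference of 0.032. MAP4K4 was lower, at 84.2 ± 0.0385 RPKM at 25 mM against 118 ± 7.40 RPKM at 5 mM (SD, n = 2) (log2 difference -0.48, adjusted p = 0.000371), TNIK had -0.98 (0.000695) and MINK1 -0.21 (0.0203).

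STRIPAK is a phosphatase complex that removes activating phosphates from STK3 and STK4. Of its 14 genes 1 was higher, 3 were lower and 10 did not pass (median 0.043). STRIP2 was lower (-1.02, adjusted p = 8.25e-05), from 20.7 ± 0.268 to 9.71 ± 0.861 RPKM, as was FGFR1OP2 (-0.42, 0.00209), and PPP2R1B, a scaffold subunit, was higher (0.55, 0.000647). RASSF proteins bind STK3 and STK4. Of 6, 4 were tested, 0 were higher and 2 lower, RASSF3 (-0.34, 0.00892) and RASSF5 (-0.48, 0.0147), with a median of -0.17.

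LATS inhibitors and ubiquitin ligases had 3 of 8 higher and 0 lower (median 0.16): LIMD1 (0.42, adjusted p = 0.00428), AJUBA (0.43, 0.0194) and DCAF1 (0.32, 0.0159). LIMD1 and AJUBA are LIM proteins that bind LATS and hold it back. The FAT and DCHS cadherins had 3 of 6 tested, with DCHS1 lower (-0.49, 0.00386) and 2 not past the test (median 0.37). Among 15 tested close relatives of the members, 6 were higher and 4 lower (median 0.096), and the kinase STK26 was lower (-0.87, 0.000703). The ERM proteins, relatives of NF2, went both ways: RDX (0.55, 0.00129) and EZR (0.43, 0.000398) were higher, and MSN (-0.26, 0.00938), the most abundant of them, was lower. MSN was named after its values were seen.

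Downstream, YAP1 was higher at 25 mM than at 5 mM, at 95.3 ± 4.09 against 79.3 ± 0.855 RPKM (log2 difference 0.26, adjusted p = 0.00459). TEAD1 (0.49, 0.00121) and TEAD4 (0.40, 0.000551), which bring YAP1 to DNA, were higher too. WWTR1, which encodes TAZ, was lower, at 25.7 ± 0.779 against 30.2 ± 0.722 RPKM (-0.23, 0.0228). The other 3 of the list of 7 did not pass (median 0.041). In a signature list of 22 YAP1/TAZ targets, which includes LATS2, 12 were higher, 3 lower and 7 did not pass (median 0.32). Its extremes were CCDC80 (1.56) and ANKRD1 (-2.44). From 5 to 50 mM 4 of the 22 rose, CTGF, ANKRD1, CYR61 and TGFB2, while LATS2 was at -0.011. These 4 calls were lost without the filter, without the trend, with the replicate block and without 5 to 50 mM replicate 2, where 0 genes passed in all. From 25 to 50 mM 0 of the 22 passed.

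Between the groups raised to 50 mM the counts of higher and lower genes were 1 and 3 of 9 for the TAOK and MAP4K kinases, 1 and 3 of 14 for STRIPAK, 0 and 3 of 4 for RASSF, 2 and 0 of 8 for LATS inhibitors and ligases, 1 and 1 of 3 for FAT and DCHS, 5 and 4 of 15 for the relatives, 3 and 1 of 7 for YAP1/TAZ and TEAD, and 9 and 4 of 22 for the targets. Over all genes tested between these groups, 18.1% were higher and 23.3% lower. In both rises every list other than the targets had 0 called by limma.

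**Figure D4:**
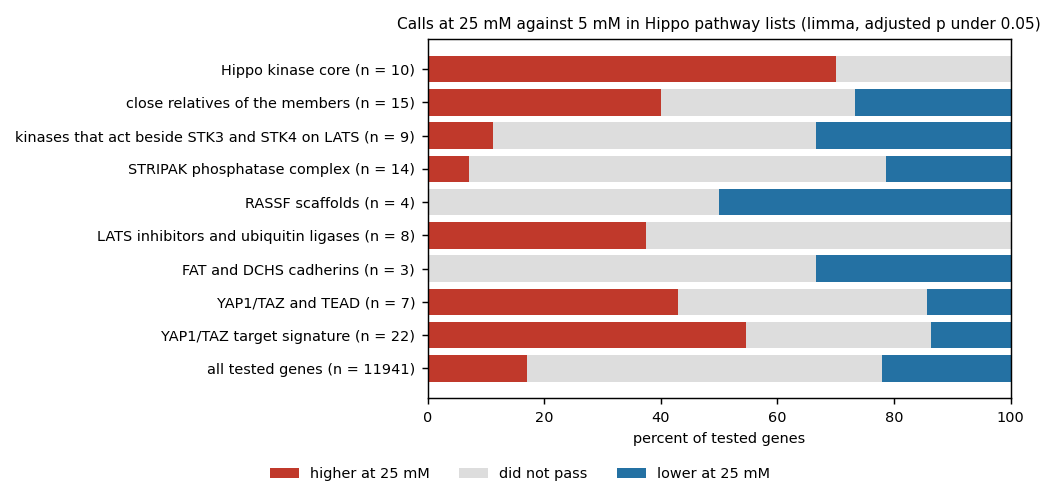
Percent of tested genes (horizontal axis) called higher or lower at 25 mM against 5 mM in the Hippo core, in lists of related genes and over all 11941 tested genes. The core has 7 of 10 genes higher and 0 lower, and over all tested genes 17% were higher and 22.1% lower.

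The genes whose levels followed a member most closely over the 8 libraries were sought for LATS2 and for the members with the largest spread between groups relative to that within groups, FRMD6 and LATS1. They are descriptions over 9601 genes, in libraries that share culture and table. EHD1 (Pearson r = 0.990), FAM46B (0.988) and TSC22D2 (0.986) followed LATS2. GPR176 (0.997), PPME1 (0.997) and UBE2J1 (0.994) followed FRMD6, and PRKCA (0.999), TANGO6 (0.997) and MAP4 (0.997) followed LATS1. An r of at least 0.95 was reached by 123 genes for LATS2, 144 for FRMD6 and 772 for LATS1, so the pattern of LATS1, a low set and a high set, was a common one.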

How the data were processed

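The authors deposited RPKM values per gene and library in 2 tables, 1 per starting glucose. STAR and hg38 are named in the submitters' processing notes, while the counting tool and annotation are not given in the sources used here. The tables were joined on gene number. Read numbers were rebuilt from RPKM by seeking library totals and gene lengths that give whole numbers within 0.0001, which held for 100% of genes above 0. The recovered lengths equal the GENCODE v29 coding length for 63.05% of 16076 genes and are divisible by 3 for 83.7%, so they are mostly coding lengths. Values were taken as log2(RPKM + 1), and a gene entered the test where 2 or more fitted libraries reached 1 RPKM. The test was limma's moderated one (version 3.58.1, R 4.3.3), two-sided, with a mean-variance trend. Each rise was fitted on its own 4 libraries, and comparisons across the tables on all 8, since the highest upper quartile was 1.06 times the lowest. No count test was used, and voom on recovered reads was an alternative. Others were a pseudocount of 0.1, no filter, median centring, no trend, a joint fit, the replicate block, each library left out and, chosen after seeing the data, a GC correction. The fit was also run on simulated reads that were independent and had the same spread setting for every gene and library. Spread within the real groups was unequal, so that run does not show how the fit performs on these libraries. Named genes are the 10 members, up to 3 called genes with the smallest p from each list (where none passed, the largest change among genes averaging 5 RPKM or more), and 3 genes per member that follow it over the libraries; part of them are printed. The members and lists were chosen with earlier results of these data known.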

Additional observations from a re-analysis of the deposited data

How the results depend on the processing

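Over the members, 619 of 690 results under an alternative kept their direction and side of the threshold, 24 lost the call, 6 gained it and 41 changed sign, each of these 41 without a call in either fit. Of 39 genes called from 5 to 50 mM, the count was 0 without the filter, 60 with median centring, 0 without the trend, 130 in the joint fit, 233 with GC correction and 0 to 805 with a library left out; 1 member passed with GC correction, and 0 to 1 with a library left out. From 25 to 50 mM (1 gene) it was 0 without the filter, 4 with centring, 0 without the trend, 7 with voom, 4 in the joint fit, 19 with GC correction and 0 to 777 with a library left out, with 0 to 1 member. For the difference between the rises (3 genes) it was 0 with the pseudocount of 0.1, 1 without the filter, 1 without the trend, 0 with voom, 5 with GC correction and 0 to 6 with a library left out. With a library left out, 25 mM against 5 mM gave 3024 to 4769 genes and 4 to 6 members, and the groups at 50 mM gave 3177 to 5733 genes and 4 to 7 members. A lone library is then assumed to vary like the other groups. With the replicate block on all 8 libraries the counts were 0 genes for each rise and 0 for their difference, 3456 genes and 5 members at 25 mM against 5 mM, and 3420 genes and 6 members at 50 mM. Deviations of same-numbered libraries from their group means correlated at -0.756 to 0.302, so they did not move alike throughout. With 2 libraries a group the deviations mirror each other, and differently numbered libraries reached 0.756 (25 to 50 mM replicate 3 with 5 mM replicate 1). Whether the numbers pair the libraries cannot be told from these values. The sign changes were as follows, on the log2 scale. From 5 to 50 mM, LATS2 went to 0.0055 with centring and 0.0017 with GC correction, and STK3 to 0.011 with the block. From 25 to 50 mM, LATS1 went to 0.046 with centring, 0.037 with the block and 0.022 with GC correction, MOB1B to 0.045, 0.014 and 0.018, LATS2 to 0.019 with centring and 0.017 with GC correction, and MOB1A to 0.020 with centring. In the difference between the rises, LATS2 went to 0.021 with centring and 0.053 with GC correction. With a library left out, the range from 5 to 50 mM was -0.10 to 0.012 for LATS1, -0.088 to 0.066 for LATS2 and -0.11 to 0.034 for STK3. From 25 to 50 mM it was -0.029 to 0.023 for LATS1, -0.097 to 0.037 for LATS2, -0.024 to 0.051 for STK4, -0.064 to 0.0053 for MOB1A and -0.065 to 0.056 for MOB1B. In the difference it was -0.015 to 0.099 for LATS1, -0.096 to 0.058 for LATS2, -0.0077 to 0.083 for MOB1A, -0.041 to 0.081 for NF2 and -0.065 to 0.14 for WWC1, and at 25 mM against 5 mM it was -0.0068 to 0.11 for STK3. The cause of these changes was not tested. Depth limits MOB1B most, at 233 reads in 1 library.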
